A study of Danio rerio with 14 samples.

Results

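The Wnt genes described here are 39 zebrafish genes of the Wnt signalling pathway, read by 46 probe sets of the Affymetrix Zebrafish array. They were chosen by gene symbol, with earlier results of these data known. The rule took every probe set that the array's gene table assigns to a single gene with a matching name. Matching names were wnt, fzd, dkk, sfrp, frzb, axin, lef1, tcf7, dvl, ctnnb, gsk3 or porcn. Names starting with lrp5, lrp6 or apc were also sought and are not analysed here. Each gene is represented by its probe set with the highest mean. The Wnt genes are 39 of 8793 named genes on the array. They comprise 10 ligands, 1 acyltransferase, 8 receptors, 6 secreted antagonists, 6 cytoplasmic components, and 8 β-catenin or nuclear genes. The rule also reads *ctnnbl1*, which matches by its name but encodes a protein associated with splicing.

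Expression was measured on 14 arrays in 7 groups of 2. RA embryos were Ekkwill zebrafish kept in fish water containing retinoic acid (RA) from the first cleavages until harvest at 4, 6 or 9 hours post fertilization (hpf), untreated embryos were harvested at the same 3 stages, and ZF4 is a fibroblastic cell line derived from zebrafish embryos, represented here by a single line. Embryo arrays read bulk RNA of whole embryos, so that fewer cells of a type and less RNA per cell cannot be told apart. Whether paired arrays represent different clutches or cultures is not given in the labels, and p-values therefore measure only the spread between these samples, which may be technical.

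Wnt ligands are secreted, lipid-modified proteins that bind Frizzled receptors. In the canonical branch, Dishevelled then restrains a complex of Axin and Gsk3, and β-catenin accumulates and acts with Lef and Tcf factors on transcription. In the zebrafish embryo, maternal β-catenin sets up the dorsal organizer, zygotic Wnt signals pattern the margin and the posterior body, and a β-catenin independent branch directs the cell movements of gastrulation. RA is itself a posteriorizing signal of the gastrula.

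All values are log2 expression values as deposited, and a difference is a difference of such values. An array value was called above background when it exceeded 5.30, the 95th percentile of the 17 tag controls, probe sets designed against artificial tags. Where both arrays of a group were at or below that level, the fold is given as a bound against it. A gene was called when its limma adjusted p was below 0.05 after Benjamini-Hochberg adjustment over 15502 probe sets. Replicate arrays correlated at 0.929 to 0.952 across probe sets. The enveloping layer, the outer epithelium of the embryo, differed between replicate arrays at 4 hpf, where its 10 markers summed to 8.90 and 11.23 in RA embryos and 9.43 and 12.36 in untreated embryos. It was not alone, as yolk syncytial layer markers summed to 9.91 and 10.97 in RA embryos and 9.86 and 11.75 in untreated embryos at 4 hpf. Maternal transcripts went the other way, at 15.24 and 14.90 in RA embryos and 15.12 and 14.61 in untreated embryos. The 9 markers of the yolk syncytial layer summed to 12.40 and 14.08 in RA embryos and 14.28 and 12.55 in untreated embryos at 9 hpf. Their part in the results was not tested.

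Receptors, antagonists and intracellular components of the pathway were widely detected, whereas *wnt5b* was the only ligand of 10 above background on both arrays of any group. Of the 39 genes, 19, 27 and 28 were above background on both arrays in RA embryos at 4, 6 and 9 hpf, against 21, 28 and 27 in untreated embryos, and 23 were in ZF4 cells. A group of 16 genes exceeded background on all 14 arrays, among them both β-catenin genes, *axin1*, *axin2*, *lef1*, *fzd7a*, *fzd7b*, and *fzd8a*. Another 7 exceeded it on none, all of them ligands (*wnt2*, *wnt2ba*, *wnt4b*, *wnt8b*, *wnt10a*, *wnt10b*, and *wnt11*).

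**Figure D1:**
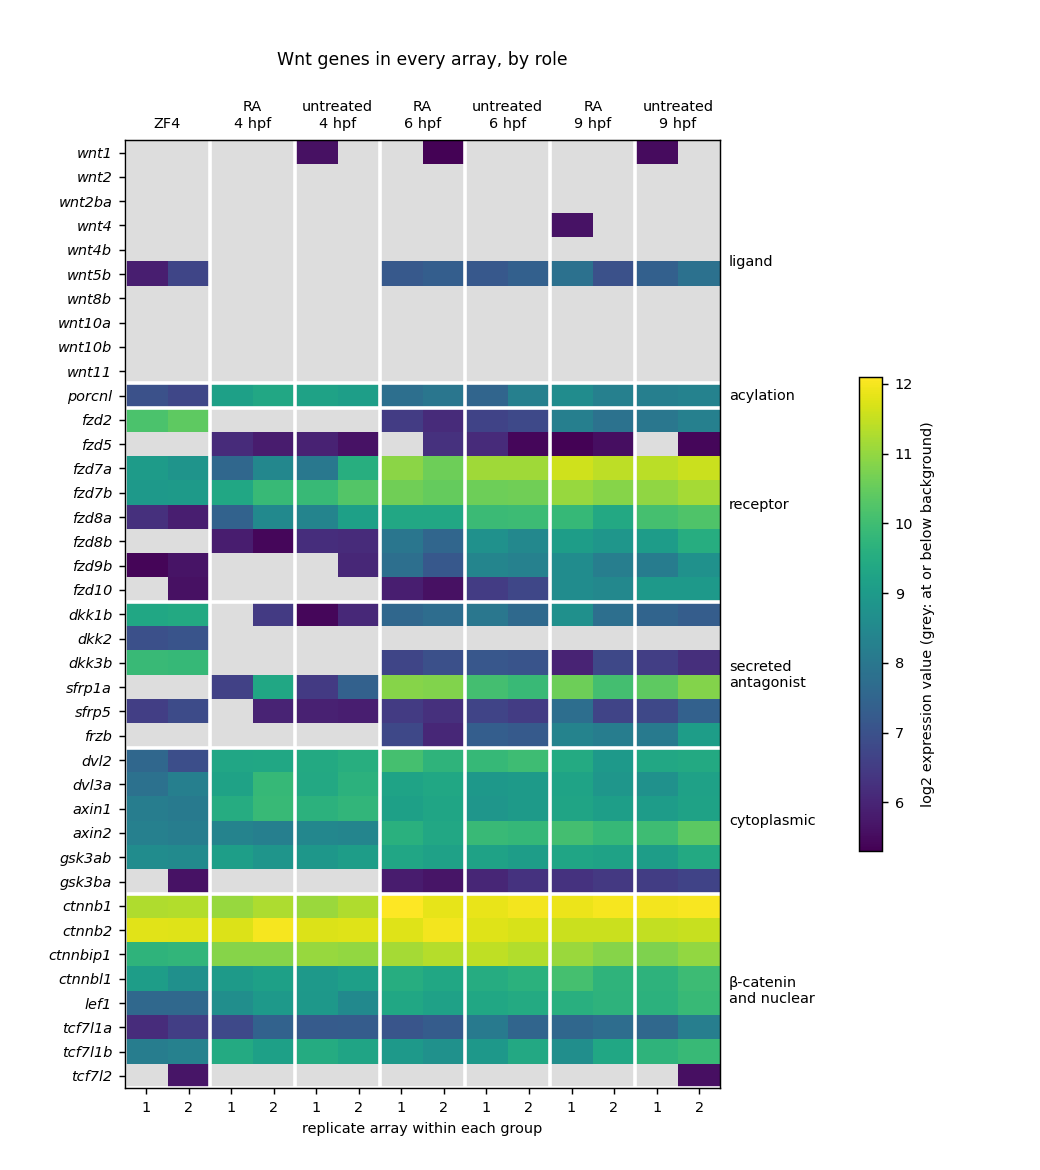
Heat map of the log2 expression value of the 39 Wnt genes (rows, grouped by role) on each of 14 arrays (columns, 2 per group), with values at or below background in grey. Colours compare arrays along a row, not genes with each other; all ligand rows other than *wnt5b* are grey on at least 11 of 14 arrays.

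Of the ligands known to act in the gastrula, Wnt8a was read by a shared probe set. It covers *wnt8a* and *wnt8-2* together, so it falls outside the single-gene rule, and the 2 genes cannot be told apart. Its value was 7.60 and 8.01 at 4 hpf, 8.65 and 8.80 at 6 hpf, and 9.88 and 9.89 at 9 hpf in RA embryos, against 7.46 and 8.61, 10.31 and 9.93, and 10.11 and 10.40 in untreated embryos. Both RA arrays were below both untreated arrays at 6 hpf, with a difference of -1.39 ± 0.33 (SE), which did not pass the test (limma adjusted p = 0.186). Between 6 hpf and 4 hpf it was higher by 0.92 ± 0.33 (SE) in RA embryos (adjusted p = 0.0446) and by 2.08 ± 0.33 (SE) in untreated embryos (adjusted p = 0.000654). In ZF4 cells the shared probe set was 9.22 and 9.20, a difference of -1.04 from untreated 9 hpf embryos (limma adjusted p = 0.0149). The probe set named *wnt11* in the gene table remained at or below background on every array, at 0.09 and 0.57 in ZF4 cells and 3.56 and 3.13 in untreated 9 hpf embryos. *wnt8b*, a ligand of the forebrain at later stages, was likewise at or below background on all arrays.

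Between neighbouring stages, most Wnt genes that were called differed between the onset of gastrulation at 6 hpf and the blastula at 4 hpf. In untreated embryos 20 of 39 genes were higher and 2 lower at 6 hpf, while 40.1% of the probe sets tested passed (19.1% higher, 20.9% lower). Of the 20, *tcf7l2*, *wnt10b*, and *wnt11* were at or below background in both groups, and have no measured fold. With all arrays kept, 16 of the 22 called genes stayed called in every alternative fit described below. The calls of *ctnnbip1*, *ctnnbl1*, *fzd8a*, *lef1*, *wnt10b*, and *wnt11* were lost in some of these fits, and further calls were lost with an array left out. The median change of the Wnt genes was 0.81, against 0.05 for all probe sets. By role, 6 of 8 receptors, 4 of 6 antagonists, 5 of 8 β-catenin and nuclear genes, 3 of 10 ligands, and 2 of 6 cytoplasmic genes were higher, and the acyltransferase and 1 cytoplasmic gene were lower. The 5 β-catenin and nuclear genes were *ctnnb1*, *ctnnbip1*, *lef1*, *tcf7l2*, and *ctnnbl1*, which matches by its name. Marker lists of other tissues and of maternal RNA also differed between the stages. The 10 enveloping layer markers summed to 14.72 and 14.64 at 6 hpf, with 10 above background on both arrays, and to 9.43 and 12.36 at 4 hpf, with 4 above. The 10 maternal transcripts summed to 11.77 and 11.93 at 6 hpf, with 9 above background, and to 15.12 and 14.61 at 4 hpf, with 10 above. Their part in the changes of the Wnt genes was not tested.

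The ligand *wnt5b*, which acts in the β-catenin independent branch and in tail morphogenesis, appeared between these stages. *wnt5b* was 3.45 and 4.01 at 4 hpf, 7.20 and 7.32 at 6 hpf, and 7.84 and 6.97 at 9 hpf in RA embryos, against 2.19 and 2.02 at 4 hpf, 7.18 and 7.38 at 6 hpf, and 7.38 and 7.83 at 9 hpf in untreated embryos. All 4 arrays at 4 hpf were at or below background, and all 8 later embryo arrays were above it. At 6 hpf against 4 hpf *wnt5b* was at least 3.89-fold higher in RA embryos (adjusted p = 0.00014) and at least 3.94-fold higher in untreated embryos (adjusted p = 2.55e-05).

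Porcupine adds the lipid that Wnt ligands need for secretion. The probe set of *porcnl*, the only gene here matched by the name porcn, changed the other way. *porcnl* was 9.16 and 9.36 at 4 hpf, 7.79 and 7.96 at 6 hpf, and 8.61 and 8.27 at 9 hpf in RA embryos, against 9.21 and 9.10 at 4 hpf, 7.52 and 8.27 at 6 hpf, and 8.24 and 8.32 at 9 hpf in untreated embryos. Every 4 hpf array was above every later array. The difference between 6 and 4 hpf was -1.39 ± 0.25 (SE), adjusted p = 0.00162 in RA embryos and -1.26 ± 0.25 (SE), adjusted p = 0.00289 in untreated embryos.

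Among the receptors, *fzd2*, *fzd9b*, *fzd8b*, *fzd7a*, *fzd10*, and *fzd8a* were called higher at 6 hpf than at 4 hpf in untreated embryos. *fzd2* was 0.13 and -0.31 at 4 hpf, 6.50 and 6.15 at 6 hpf, and 8.24 and 7.87 at 9 hpf in RA embryos, against 0.63 and 1.00 at 4 hpf, 6.68 and 6.80 at 6 hpf, and 8.01 and 8.26 at 9 hpf in untreated embryos. The 4 hpf arrays lay far below background and all later embryo arrays above it, so that *fzd2* was at least 2.71-fold higher at 6 hpf in untreated embryos (adjusted p = 2.14e-05). *fzd8b* was 5.86 and 5.43 at 4 hpf, 7.97 and 7.55 at 6 hpf, and 9.09 and 8.86 at 9 hpf in RA embryos, against 6.19 and 6.13 at 4 hpf, 8.73 and 8.46 at 6 hpf, and 9.06 and 9.54 at 9 hpf in untreated embryos. *fzd8b* arrays of the 3 stages did not overlap within untreated embryos, although the difference between 9 and 6 hpf, 0.70 ± 0.27 (SE), did not pass the test (adjusted p = 0.143). At 6 hpf against 4 hpf the change was 2.44 ± 0.27 (SE), adjusted p = 9.49e-05. *fzd9b* was 5.15 and 4.21 at 4 hpf, 7.79 and 7.17 at 6 hpf, and 8.61 and 8.21 at 9 hpf in RA embryos, against 4.93 and 6.05 at 4 hpf, 8.40 and 8.29 at 6 hpf, and 8.14 and 8.74 at 9 hpf in untreated embryos. Of the 4 hpf arrays only replicate 2 of the untreated embryos exceeded background for *fzd9b*, and the change in untreated embryos was 2.86 ± 0.45 (SE), adjusted p = 0.000694.

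The paralogs *fzd7a* and *fzd7b* were above background from 4 hpf onward. *fzd7a* was 7.57 and 8.44 at 4 hpf, 10.91 and 10.60 at 6 hpf, and 11.59 and 11.43 at 9 hpf in RA embryos, against 8.03 and 9.56 at 4 hpf, 11.12 and 11.12 at 6 hpf, and 11.40 and 11.55 at 9 hpf in untreated embryos. The 2 untreated 4 hpf arrays of *fzd7a* differed by 1.53. Both remained below every 6 hpf array, and the difference was 2.32 ± 0.41 (SE), adjusted p = 0.00146. *fzd7b* was 9.35 and 9.87 at 4 hpf, 10.61 and 10.50 at 6 hpf, and 11.04 and 10.87 at 9 hpf in RA embryos, against 9.87 and 10.28 at 4 hpf, 10.58 and 10.63 at 6 hpf, and 10.96 and 11.19 at 9 hpf in untreated embryos. Its difference between 6 and 4 hpf was 0.94 ± 0.19 (SE) in RA embryos (adjusted p = 0.00325) and 0.53 ± 0.19 (SE) in untreated embryos (adjusted p = 0.0507, not called). The other *fzd7b* probe set was called in both, at 1.09 ± 0.24 (SE) in RA embryos (limma adjusted p = 0.00478) and 0.96 ± 0.24 (SE) in untreated embryos (limma adjusted p = 0.00943). *fzd8a* was 7.43 and 8.51 at 4 hpf, 9.38 and 9.39 at 6 hpf, and 9.85 and 9.39 at 9 hpf in RA embryos, against 8.38 and 9.15 at 4 hpf, 9.92 and 9.97 at 6 hpf, and 10.08 and 10.23 at 9 hpf in untreated embryos. *fzd8a* was higher at 6 hpf by 1.18 ± 0.34 (SE), adjusted p = 0.0194 in untreated embryos. That call was lost when replicate 1 of the untreated 4 hpf arrays was left out (change 0.79), without either 6 hpf array, and without the intensity trend. *fzd5* ranged from 4.70 to 6.27 over all arrays, close to background, and was called in no comparison.

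In the main fit *fzd10* was the single Wnt gene called higher at 9 hpf than at 6 hpf in untreated embryos. *fzd10* was 4.82 and 4.84 at 4 hpf, 5.87 and 5.62 at 6 hpf, and 8.62 and 8.47 at 9 hpf in RA embryos, against 4.56 and 5.25 at 4 hpf, 6.50 and 6.75 at 6 hpf, and 8.94 and 8.96 at 9 hpf in untreated embryos. The 3 stages did not overlap in either treatment, with values at or below background at 4 hpf. At 9 hpf against 6 hpf *fzd10* was higher by 2.80 ± 0.32 (SE), adjusted p = 0.000447 in RA embryos and by 2.32 ± 0.32 (SE), adjusted p = 0.00188 in untreated embryos. In that interval 4 genes were higher and 1 lower in RA embryos, where 16.0% of probe sets were called (6.77% higher, 9.26% lower), and 1 was higher and 1 lower in untreated embryos, where 10.1% were called (4.37% higher, 5.74% lower). In RA embryos *frzb* was also higher by 1.85 ± 0.53 (SE), *fzd2* by 1.73 ± 0.45 (SE), and *fzd8b* by 1.21 ± 0.27 (SE). The Dishevelled gene *dvl2* was 9.45 and 8.96 at 9 hpf and 10.10 and 9.71 at 6 hpf, a difference of -0.69 ± 0.20 (SE). Adjusted p-values of these 4 genes lay between 0.0136 and 0.0385. With 1 array left out fewer Wnt genes were called in RA embryos, as were fewer of all probe sets. *fzd10* alone was called in every alternative. The call of *fzd2* was lost without any 1 of the 4 arrays (changes between 1.549 and 1.915). In untreated embryos the mean of *fzd2* went from 6.74 at 6 hpf to 8.13 at 9 hpf, and that of *frzb* from 7.28 to 8.58. Neither was called in the main fit. *fzd2* was called with log2(value + 32), without dim probe sets, without the trend, and in the compared groups alone (limma adjusted p between 0.0076 and 0.0449). *frzb* was called with log2(value + 32) (limma adjusted p = 0.0392). Whether the change between 6 and 9 hpf differed between treatments was tested as the difference of RA effects, and no Wnt gene was called.

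**Figure D2:**
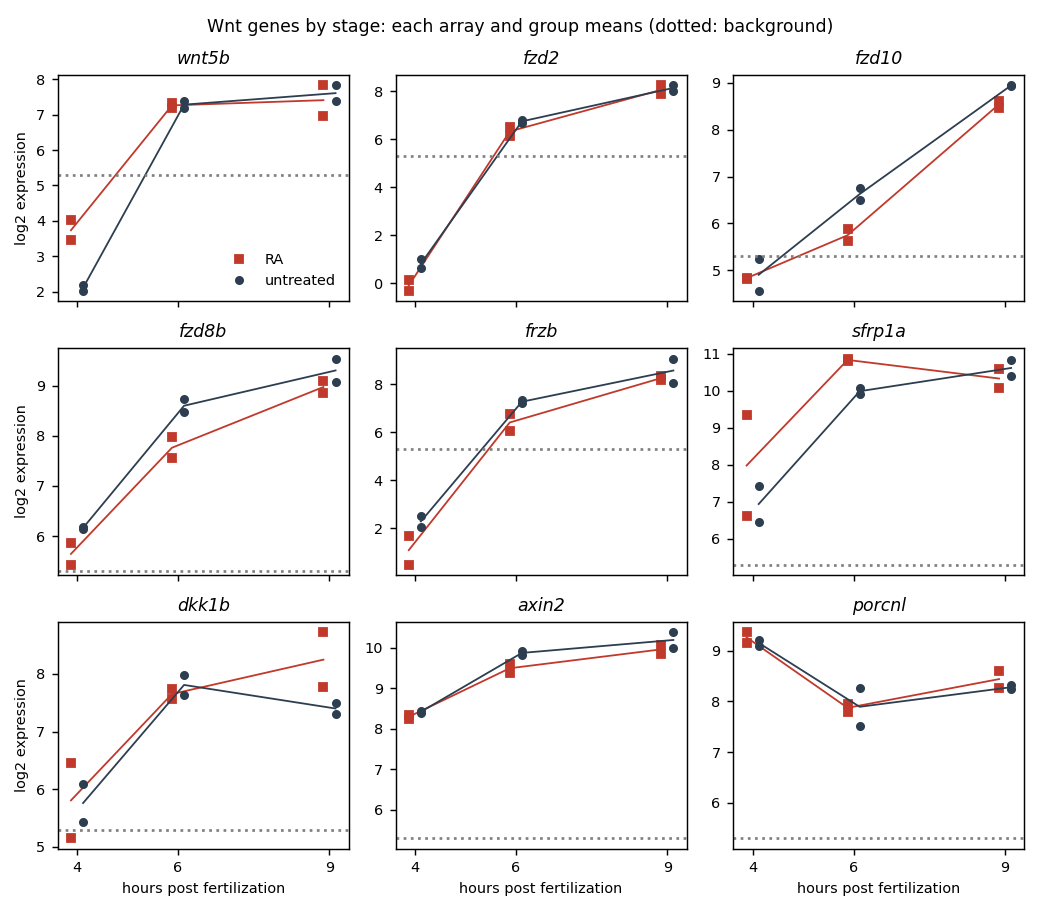
Log2 expression of 9 Wnt genes at 4, 6 and 9 hpf, with each array as a point and the mean of 2 arrays as a line for RA embryos (squares) and untreated embryos (circles). The dotted line is background (5.30); axes differ between panels and do not start at 0. *fzd2*, *wnt5b*, and *frzb* are below background at 4 hpf and above it at 6 hpf in both treatments, and *fzd10* continues upward to 9 hpf.

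Of the 6 secreted antagonists, 4 were higher at 6 hpf than at 4 hpf in untreated embryos. Frzb and the Sfrp proteins carry a Frizzled-like domain that binds Wnt ligands, and Dkk1 blocks the Lrp co-receptors. *frzb* was 0.48 and 1.69 at 4 hpf, 6.78 and 6.05 at 6 hpf, and 8.35 and 8.19 at 9 hpf in RA embryos, against 2.53 and 2.04 at 4 hpf, 7.34 and 7.22 at 6 hpf, and 8.08 and 9.08 at 9 hpf in untreated embryos. All 4 hpf arrays of *frzb* were below background and it was at least 3.94-fold higher at 6 hpf in untreated embryos (adjusted p = 7.64e-05). *sfrp1a* was 6.62 and 9.34 at 4 hpf, 10.87 and 10.79 at 6 hpf, and 10.59 and 10.06 at 9 hpf in RA embryos, against 6.46 and 7.42 at 4 hpf, 10.06 and 9.91 at 6 hpf, and 10.40 and 10.83 at 9 hpf in untreated embryos. *sfrp1a* was above background on all 12 embryo arrays. Its 2 RA arrays at 4 hpf were 2.72 apart, the widest replicate gap among Wnt genes above background on both arrays. Its change between 6 and 4 hpf was 3.05 ± 0.67 (SE), adjusted p = 0.00472 in untreated embryos.

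The organizer antagonist *dkk1b* was near background at 4 hpf. *dkk1b* was 5.15 and 6.46 at 4 hpf, 7.56 and 7.74 at 6 hpf, and 8.72 and 7.77 at 9 hpf in RA embryos, against 5.43 and 6.09 at 4 hpf, 7.98 and 7.63 at 6 hpf, and 7.49 and 7.30 at 9 hpf in untreated embryos. One RA array at 4 hpf was at or below background. At 6 hpf *dkk1b* was higher by 2.05 ± 0.46 (SE), adjusted p = 0.00549 in untreated embryos. *dkk3b*, a divergent member of the Dickkopf family, was 7.14 and 7.06 at 6 hpf and 1.20 and 4.77 at 4 hpf in untreated embryos, at least 3.48-fold higher (adjusted p = 0.0117). That call was lost without replicate 1 of the untreated 4 hpf arrays (change 2.34, adjusted p = 0.0894), and without either 6 hpf array. *dkk2* was at or below background on all embryo arrays, and *sfrp5* was called in no comparison of the main fit. At 9 against 4 hpf in untreated embryos *sfrp5* differed by 1.19 ± 0.45 (SE), limma adjusted p = 0.0514. Quantile normalization, a common median, log2(value + 32), and leaving out dim probe sets called it higher there (limma adjusted p between 0.0358 and 0.0474).

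Of the cytoplasmic components, *axin2*, which is a feedback target of the pathway, and *axin1*, its constitutive paralog, changed in opposite directions. *axin2* was 8.35 and 8.24 at 4 hpf, 9.60 and 9.38 at 6 hpf, and 10.06 and 9.85 at 9 hpf in RA embryos, against 8.45 and 8.39 at 4 hpf, 9.91 and 9.82 at 6 hpf, and 10.00 and 10.38 at 9 hpf in untreated embryos. The 4 hpf arrays of *axin2* were below every later array, and the change at 6 hpf was 1.20 ± 0.18 (SE), adjusted p = 0.00048 in RA embryos and 1.45 ± 0.18 (SE), adjusted p = 0.000152 in untreated embryos. *axin1* was 9.52 and 9.87 at 4 hpf, 9.16 and 9.29 at 6 hpf, and 9.27 and 9.12 at 9 hpf in RA embryos, against 9.66 and 9.77 at 4 hpf, 8.87 and 8.99 at 6 hpf, and 9.07 and 9.21 at 9 hpf in untreated embryos. The change of *axin1* at 6 hpf was -0.47 ± 0.17 (SE), adjusted p = 0.0491 in RA embryos and -0.79 ± 0.17 (SE), adjusted p = 0.00441 in untreated embryos. The call in RA embryos was lost without RA 4 hpf replicate 2 (change -0.29) and without either RA 6 hpf array. It was also lost with quantile normalization, a common median, no intensity trend, and the compared groups alone. The other *axin1* probe set was lower too but not called, at -0.48 ± 0.20 (SE) in RA embryos (limma adjusted p = 0.0835) and -0.53 ± 0.20 (SE) in untreated embryos (limma adjusted p = 0.0622). *gsk3ba*, a gene for the kinase of the destruction complex, was 6.04 and 6.29 at 6 hpf and 1.29 and 3.98 at 4 hpf in untreated embryos, at least 1.82-fold higher (adjusted p = 0.00641). *gsk3ab* and *dvl3a* were called in no comparison among untreated embryos.

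Of the β-catenin genes, *ctnnb1* was called between stages and *ctnnb2* was not. *ctnnb1* was 11.04 and 11.26 at 4 hpf, 12.09 and 11.85 at 6 hpf, and 11.88 and 11.99 at 9 hpf in RA embryos, against 11.08 and 11.29 at 4 hpf, 11.86 and 11.98 at 6 hpf, and 11.98 and 12.03 at 9 hpf in untreated embryos. *ctnnb1* arrays of 6 and 9 hpf lay above all those of 4 hpf, and the change at 6 hpf was 0.73 ± 0.13 (SE), adjusted p = 0.0013 in untreated embryos. *ctnnb2* was 11.74 and 11.99 at 4 hpf, 11.77 and 11.96 at 6 hpf, and 11.56 and 11.55 at 9 hpf in RA embryos, against 11.73 and 11.76 at 4 hpf, 11.77 and 11.68 at 6 hpf, and 11.46 and 11.52 at 9 hpf in untreated embryos. The whole range of *ctnnb2* over embryos was narrower, and it was called in no stage comparison of the main fit. Its 9 hpf arrays lay below the earlier arrays in each treatment. With quantile normalization it was called lower at 9 against 6 hpf in RA embryos (-0.44 ± 0.12, limma adjusted p = 0.034). The same setting called it lower at 9 against 4 hpf in untreated embryos (-0.48 ± 0.12, limma adjusted p = 0.00794). *lef1* was 8.66 and 8.94 at 4 hpf, 9.34 and 9.20 at 6 hpf, and 9.58 and 9.70 at 9 hpf in RA embryos, against 8.91 and 8.53 at 4 hpf, 9.35 and 9.47 at 6 hpf, and 9.67 and 9.87 at 9 hpf in untreated embryos. *lef1*, a nuclear partner of β-catenin, was higher at 6 hpf by 0.69 ± 0.19 (SE), adjusted p = 0.0136 in untreated embryos, a call lost without replicate 2 of either stage.

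The Tcf repressors *tcf7l1a* and *tcf7l1b*, which restrain Wnt targets in the head, were above background on all arrays. Neither was called in a stage comparison of the main fit. With quantile normalization *tcf7l1a* was called higher at 9 against 4 hpf in untreated embryos (0.965 ± 0.339 (SE), limma adjusted p = 0.0384). *tcf7l1a* was 6.80 and 7.45 at 4 hpf, 7.09 and 7.29 at 6 hpf, and 7.57 and 7.73 at 9 hpf in RA embryos, against 7.25 and 7.28 at 4 hpf, 8.08 and 7.52 at 6 hpf, and 7.61 and 8.20 at 9 hpf in untreated embryos. *tcf7l1b* was 9.46 and 9.16 at 4 hpf, 8.98 and 8.73 at 6 hpf, and 8.66 and 9.36 at 9 hpf in RA embryos, against 9.49 and 9.27 at 4 hpf, 8.92 and 9.40 at 6 hpf, and 9.71 and 9.88 at 9 hpf in untreated embryos. The untreated 4 hpf arrays of *tcf7l1a* were below the later untreated arrays, a difference that did not pass the test (adjusted p = 0.217 at 6 against 4 hpf). *ctnnbip1*, whose product keeps β-catenin from Tcf factors, was 10.78 and 10.99 at 9 hpf and 11.44 and 11.30 at 6 hpf in untreated embryos. The difference was -0.49 ± 0.13 (SE), adjusted p = 0.0368, a call that was lost in 8 of its alternatives.

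Treated and untreated embryos share no array, so their stage comparisons can be set side by side. Both use 1 estimate of the spread over the 12 embryo arrays. Deviations of same-numbered RA and untreated arrays at 4 hpf correlated at 0.57 across probe sets, so the calls are not independent. Of 21 Wnt genes called between 6 and 4 hpf in RA embryos (19 higher and 2 lower, with 40.5% of probe sets passing, 21.2% upward and 19.3% downward) and 22 in untreated embryos, 19 were called in both with the same sign. They make up 90.5% of the RA calls and 86.4% of the untreated calls, and for all probe sets the shares were 79.5% and 80.4%. *fzd7b* and *dvl2* were called in RA embryos alone and *ctnnbl1*, *lef1*, and *wnt10b* in untreated embryos alone. The other *fzd7b* probe set was called in both treatments. With all arrays kept, 14 of the 21 RA calls stayed called in every alternative fit. The calls of *axin1*, *ctnnbip1*, *dvl2*, *fzd10*, *gsk3ba*, *tcf7l2*, and *wnt11* did not, and all of these but *dvl2* are among the shared calls. *tcf7l2* and *wnt11* were at or below background in both RA groups. The other *fzd10* probe set was not called in RA embryos (1.01 ± 0.39 (SE), limma adjusted p = 0.0615). Further RA calls were lost with an array left out, where fewer of all probe sets were called as well. At 9 against 4 hpf, 18 Wnt genes were higher and 2 lower in untreated embryos, where 46.0% of probe sets were called (21.8% higher, 24.3% lower). *fzd2* was at least 7.12-fold higher, *fzd10* at least 12.5-fold, and *frzb* at least 9.72-fold. With all arrays kept, 18 of these 20 calls stayed in every alternative fit, and those of *axin1* and *dkk3b* did not. The other *axin1* probe set was not called (-0.275 ± 0.203 (SE), limma adjusted p = 0.307). The calls of *porcnl*, *dkk1b*, and *fzd8a* were lost in some fits with an array left out.

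No Wnt gene passed the test between RA and untreated embryos at any stage. Of 39 genes, 0 were called between RA and untreated embryos at 4, 6 or 9 hpf by limma, where 0.0903%, 0.284%, and 0% of all probe sets were called. At an unadjusted p below 0.05 there were 4, 2, and 1. The matching share of all probe sets was not computed, so no result is read from these counts. The median change of the Wnt genes at the 3 stages was -0.07, -0.14, and -0.08, against -0.08, -0.02, and -0.01 for all probe sets. For the 8 receptors it was -0.66, -0.49, and -0.10, and for the 6 secreted antagonists -0.34, -0.19, and -0.15. The 10 ligands gave -0.19, -0.07, and 0.19, and the 8 β-catenin and nuclear genes -0.01, -0.14, and -0.10. The 6 cytoplasmic genes gave -0.02, 0.04, and -0.10, and the acyltransferase 0.11, -0.02, and 0.16. Of the receptors, *fzd2* and *fzd10* were at or below background on all 4 hpf arrays.

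At 6 hpf both RA arrays were below both untreated arrays for 14 of 39 Wnt genes, where 22.1% of all probe sets were, and above them for 5, where 19.3% were. Among genes above background on all 4 arrays the counts were 13 and 4 of 27, where 21.3% and 23.1% of such probe sets were. Of 8 Frizzled genes, 6 were lower in this way (*fzd2*, *fzd7a*, *fzd8a*, *fzd8b*, *fzd9b*, and *fzd10*). At 4 hpf 2 of 8 were (*fzd8b*, and *fzd2*, which was at or below background there), where 19.3% of all probe sets were. At 9 hpf 2 of 8 were (*fzd8a* and *fzd10*), where 13.3% were. *fzd10* was 5.87 and 5.62 in RA embryos and 6.50 and 6.75 in untreated embryos, a difference of -0.88 ± 0.32 (SE), adjusted p = 0.52. *fzd8b* was 7.97 and 7.55 in RA embryos and 8.73 and 8.46 in untreated embryos, a difference of -0.84 ± 0.27 (SE), adjusted p = 0.431. Neither gene passed the limma test. The differences were -0.87 ± 0.45 (SE) for *fzd9b*, -0.56 ± 0.34 (SE) for *fzd8a*, -0.42 ± 0.45 (SE) for *fzd2*, and -0.37 ± 0.41 (SE) for *fzd7a*. A further probe set was lower too for *fzd8a* (-0.86), *fzd9b* (-0.93), and *fzd10* (-0.46), none of them called.

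Other genes followed either direction at 6 hpf without passing the test. The antagonist *frzb* was 6.78 and 6.05 in RA embryos and 7.34 and 7.22 in untreated embryos, a difference of -0.86 ± 0.53 (SE), and *axin2* differed by -0.38 ± 0.18 (SE). *sfrp1a* went the other way, at 10.87 and 10.79 in RA embryos and 10.06 and 9.91 in untreated embryos, a difference of 0.85 ± 0.67 (SE), adjusted p = 0.887. Fitting the 6 hpf arrays alone called *sfrp1a* (0.85 ± 0.12, adjusted p = 0.0374). *axin1* was higher by 0.29 ± 0.17 (SE) on its brighter probe set and differed by -0.08 on the other. The median tag control was 3.56 and 3.40 on the RA 6 hpf arrays and 1.83 and 1.94 on the untreated ones, and its part in these differences was not tested.

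At 4 hpf *wnt5b* was 3.45 and 4.01 in RA embryos and 2.19 and 2.02 in untreated embryos, all at or below background, so no fold is given. *fzd8a* differed by -0.79 ± 0.34 (SE), adjusted p = 0.887, and its RA and untreated arrays overlapped. By replicate number it was 7.43 in RA against 8.38 in untreated embryos, and 8.51 against 9.15. *fzd2*, *fzd7a*, *fzd7b*, and *fzd8b* were likewise lower with RA in both pairs, *fzd5* was higher in both, and *fzd9b* and *fzd10* went both ways. Deviations of same-numbered arrays at 4 hpf correlated at 0.57, and neither the test nor the overlap pairs them. *sfrp1a* was 6.62 and 9.34 in RA embryos and 6.46 and 7.42 in untreated embryos, and leaving out the lower RA array called it higher (2.40, adjusted p = 0.0498). At 9 hpf *dkk1b* was 8.72 and 7.77 in RA embryos and 7.49 and 7.30 in untreated embryos, a difference of 0.85 ± 0.46 (SE), adjusted p = 1. *tcf7l1b* was 8.66 and 9.36 in RA embryos and 9.71 and 9.88 in untreated embryos, a difference of -0.79 ± 0.26 (SE), adjusted p = 1. Neither set of arrays overlapped. The RA effect of no Wnt gene was called as different between 6 and 4 hpf or between 9 and 6 hpf, where 0.00645% of probe sets were called in each.

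**Figure D3:**
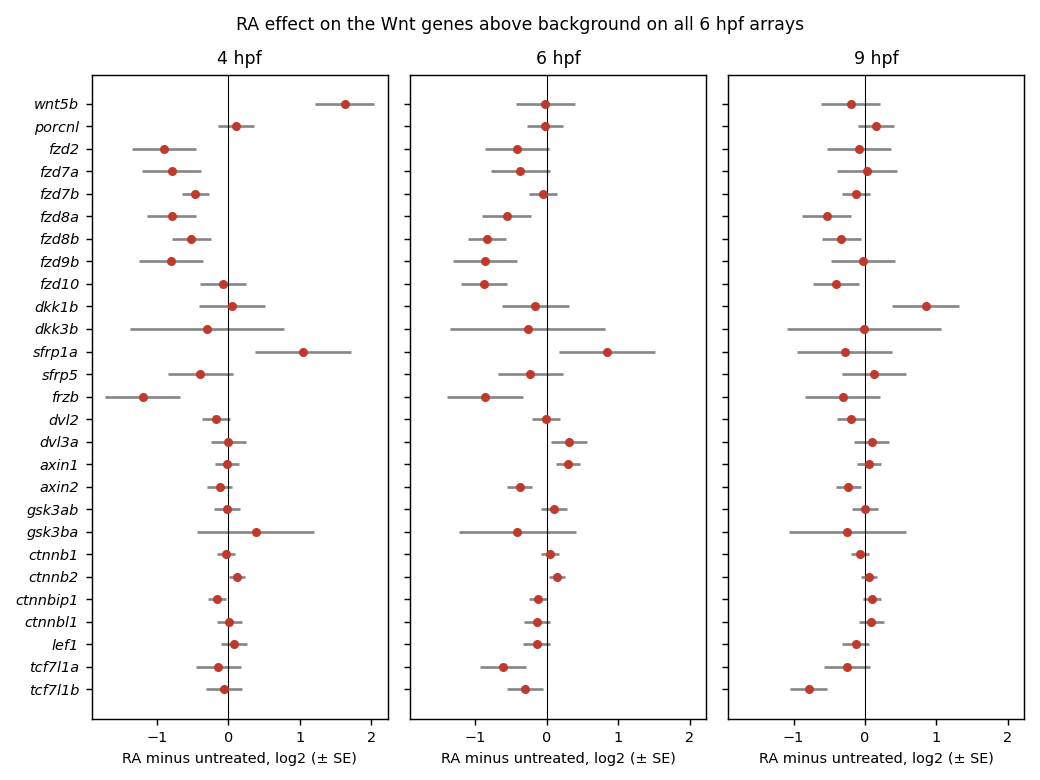
Difference between RA and untreated embryos in log2 units, with its SE, at 4, 6 and 9 hpf for the 27 Wnt genes above background on all 4 arrays of 6 hpf. No point passed the test; at 6 hpf most Frizzled genes (*fzd2* to *fzd10*) lie left of 0, and *sfrp1a* lies right of it at 0.85. Several genes were at or below background at 4 hpf, so that their points there have no measured fold.

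Genes of the pathway outside the symbol rule were read from 2 lists. Of 46 further components, such as co-receptors, Groucho co-repressors and planar polarity genes, 21 were measured and 0 were called for RA at any stage. Of 29 symbols of genes known as Wnt targets, which include alternative names of the same gene, 22 genes were measured. Among them *sp5l*, a direct Wnt target, was 8.06 and 9.52 in RA embryos and 4.81 and 5.20 in untreated embryos at 4 hpf, at least 11.2-fold higher, and *irx7*, a neural patterning gene, was 8.71 and 8.22 in RA embryos and 10.21 and 9.88 in untreated embryos at 6 hpf, a difference of -1.58 ± 0.21 (SE). No other target was called for RA. The median change of the 22 targets with RA was -0.66, -0.24, and 0.01 at 4, 6 and 9 hpf. For all probe sets it was -0.08, -0.02, and -0.01, so *sp5l* went against the median of its list at 4 hpf. Between 6 and 4 hpf in untreated embryos, 9 of 22 targets were higher and 1 lower, and 6 of 21 components were higher and 3 lower, where 19.1% of all probe sets were higher and 20.9% lower.

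ZF4 cells gave lower values than whole embryos for most of the Wnt genes. Compared with untreated 9 hpf embryos, 5 of 39 genes were higher and 22 lower, where 45.4% of the probe sets tested passed (21.6% higher, 23.8% lower). The median change was -1.01 for the Wnt genes and -0.08 for all probe sets. Of the 8 receptors 1 was higher and 6 lower, and of the 6 antagonists 3 were higher and 2 lower. The cells carried 12 of 14 fibroblast markers above background on both arrays, against 6 in untreated 9 hpf embryos, and 1 of 6 early embryo markers, against 6.

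The Dickkopf genes and *fzd2* were higher in the cell line. *dkk2* was 6.97 and 7.07 in ZF4 cells and 0.37 and 2.82 in embryos, at least 3.29-fold higher (adjusted p = 0.002), and ZF4 was the single group in which it exceeded background. *dkk3b* was 9.90 and 9.85 in ZF4 cells and 6.57 and 6.22 in embryos, a difference of 3.48 ± 1.00 (SE), adjusted p = 0.0137. *dkk1b* was 9.36 and 9.44 in ZF4 cells and 7.49 and 7.30 in embryos, a difference of 2.00 ± 0.43 (SE), adjusted p = 0.00238. In all 3 genes every ZF4 array was above both embryo arrays. *fzd2* was 10.17 and 10.41 in ZF4 cells and 8.01 and 8.26 in embryos, higher by 2.16 ± 0.37 (SE), adjusted p = 0.00051. *ctnnb2* was 11.79 and 11.76 in ZF4 cells and 11.46 and 11.52 in embryos, and its difference was small at 0.28 ± 0.10 (SE), adjusted p = 0.0386. The call of *ctnnb2* was lost without any 1 of the 4 arrays (adjusted p between 0.0846 and 0.156), and that of *dkk3b* without either ZF4 array or untreated 9 hpf replicate 2 (adjusted p between 0.059 and 0.0652).

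Of the other 7 Frizzled genes 6 were lower, as were *frzb* and *sfrp1a*, while *fzd5* and *sfrp5* did not pass the test. *frzb* was 0.69 and 1.12 in ZF4 cells and 8.08 and 9.08 in embryos, at least 9.72-fold lower (adjusted p = 8.06e-07). *fzd8b* was 0.68 and 2.94 in ZF4 cells and 9.06 and 9.54 in embryos, at least 16-fold lower (adjusted p = 9.92e-07). *sfrp1a* was 3.36 and 3.71 in ZF4 cells and 10.40 and 10.83 in embryos, at least 39.7-fold lower (adjusted p = 4.46e-06). These 3 were at or below background in ZF4. *fzd8a* was 6.24 and 5.88 in ZF4 cells and 10.08 and 10.23 in embryos, a difference of -4.10 ± 0.34 (SE), adjusted p = 2.04e-06. *fzd10* was 4.73 and 5.61 in ZF4 cells, 1 of 2 arrays above background, and 8.94 and 8.96 in embryos, a difference of -3.78 ± 0.37 (SE), adjusted p = 7.39e-06. A further pair of receptors were lower, with *fzd9b* at 5.40 and 5.66 in ZF4 cells and *fzd7a* at 9.02 and 8.83, differences of -2.92 ± 0.44 (SE) and -2.56 ± 0.39 (SE).

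Of the 6 cytoplasmic genes 5 were lower and 1 did not pass, and of the 8 β-catenin and nuclear genes 6 were lower, 1 was higher (*ctnnb2*) and 1 did not pass. *lef1* was 7.60 and 7.59 in ZF4 cells and 9.67 and 9.87 in embryos, a difference of -2.17 ± 0.18 (SE), adjusted p = 1.96e-06. *axin2* was 8.25 and 8.19 in ZF4 cells and 10.00 and 10.38 in embryos, a difference of -1.97 ± 0.17 (SE), adjusted p = 2.53e-06. The groups did not overlap in either gene. *tcf7l1a*, at 6.15 and 6.56, and *tcf7l1b*, at 8.19 and 8.28 in ZF4 cells, differed by -1.54 ± 0.32 (SE) and -1.57 ± 0.24 (SE) from embryos. *axin1* was 8.19 and 8.07 and *ctnnb1* 11.29 and 11.32 in ZF4 cells, differing by -1.01 ± 0.16 (SE) and -0.70 ± 0.12 (SE) from embryos. The ligand *wnt5b* was above background in ZF4 cells at 5.87 and 6.72, with a difference of -1.31 ± 0.43 (SE) that was lost without ZF4 replicate 1 (adjusted p = 0.209) or untreated 9 hpf replicate 2 (adjusted p = 0.15), and *fzd7b* was 8.95 and 9.01, with a difference of -2.10 ± 0.18 (SE).

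**Figure D4:**
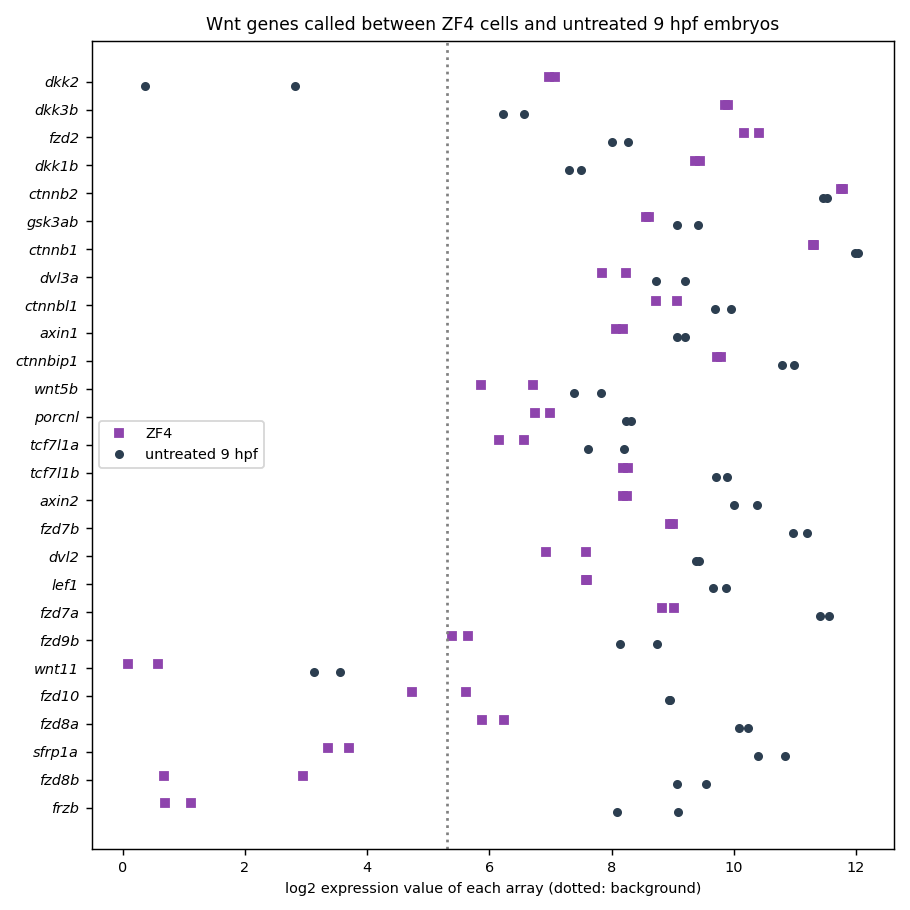
Log2 expression on each array of ZF4 cells (squares) and untreated 9 hpf embryos (circles) for the 27 Wnt genes called between them, ordered by difference. The dotted line is background; the 5 rows at the top, *dkk2* to *ctnnb2*, are the genes higher in ZF4, and *wnt11* is at or below background in both groups.

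Outside the symbol rule, 4 of 21 components were higher and 9 lower in ZF4 cells, and 1 of 22 targets was higher and 15 lower, where 21.6% of all probe sets were higher and 23.8% lower. The secreted Wnt deacylase *notum1b* was at least 15.1-fold higher and the Wnt-binding antagonist *wif1* was higher too, at 9.10 and 9.21 in ZF4 cells against 6.43 and 5.87 in embryos, while the Groucho gene *tle2a* was lower, with a difference of -3.54, as was the receptor tyrosine kinase *ror2*, with -3.18. *sp5l* was at least 78.2-fold lower and *cdx4*, a posterior homeobox gene, at least 105-fold lower. The target that was higher was *mycb*, by 3.41.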

How the data were processed

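RNA of 14 samples (7 groups of 2) was hybridized to Affymetrix Zebrafish arrays. The deposited log2 values were made by the authors with the R package affy (version 2.15.2 per the labels), by mas5 background correction and invariantset normalization through expresso; the summary method is not given in the sources used here. The methods name untreated arrays at 9 hpf only, and groups followed the labels. Of 15617 probe sets, 115 controls were left out and 10795 of the rest have 1 gene symbol.

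The remaining 15502 were fitted with limma 3.58.1 (R 4.3.3), as group means over 12 embryo arrays, or 14 for ZF4, moderated with a trend on intensity, in two-sided tests. The number of arrays limits the precision. Values are given for the 5 members with the largest called change in each direction per comparison and for a list of gastrula Wnt genes. Members and lists were chosen with earlier results of these data known. Alternatives were quantile normalization, a common median, log2(value + 32), leaving out dim probe sets, no trend, averaged probe sets, the compared groups alone, a replicate block, and leaving out each array. No sequences are given.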

Additional observations from a re-analysis of the deposited data

How the results depend on the processing

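The median change of the Wnt genes with RA turned positive at 9 hpf without untreated 9 hpf replicate 2 (0.09) or RA 9 hpf replicate 2 (0.05), and at 4 hpf with quantile normalization (0.04). Of 1157 alternative values for 97 calls, each of 1 gene in 1 comparison, 0 changed sign, 1012 stayed called and 145 did not. These alternatives include the fits with 1 array left out. RA at 6 hpf gave 1 called gene when the compared groups were fitted alone. Leaving out 1 array gave 0 to 1 for RA at 4 hpf, 13 to 16 for 6 against 4 hpf in RA embryos (13 without RA 6 hpf replicate 2), 1 to 2 for 9 against 6 hpf in RA embryos, and 1 in every case in untreated embryos. For 9 against 6 hpf the count was 3 without the trend in RA embryos, and 4 with log2(value + 32) and 1 with a common median in untreated embryos. A common median moved the median of all probe sets to 0.20 (6 against 4 hpf) and 0.19 (9 against 4 hpf) in untreated embryos. Replicate numbers in the labels are not said to mark a clutch or day, and the deviations of same-numbered RA and untreated arrays correlated across probe sets at 0.57, -0.02 and -0.70 at 4, 6 and 9 hpf. With the replicate block the counts were 0 for RA at each stage, 20 for 6 against 4 and 4 for 9 against 6 hpf in RA embryos, 21 for 6 against 4, 1 for 9 against 6 and 20 for 9 against 4 hpf in untreated embryos, and 27 for ZF4. The block was a shift shared by all groups, so it could not follow correlations that differ between stages, and no fit paired the 4 hpf arrays by themselves. With numbers crossed at 9 hpf, chosen after seeing the data, 0 were called.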
